A study of Mus musculus with 6 samples.

Results

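A set of 10 genes of oxidative stress defence were followed in cultured mouse sensory ganglion cells: Slc7a11, Gclc, Gclm, Gpx4, Prdx1, Sod2, Txnrd1, Srxn1, Nqo1 and Hmox1. They were taken by symbol from a table of 45703 genes, and all 10 members were found, each in a single row. The 6 samples were replicate primary cultures of dorsal root ganglia (DRG), which lie along the spinal cord and hold the cell bodies of sensory neurons wrapped in glia. The donors were wild-type C57BL/6 mice of 4 to 6 weeks. After enzymatic dispersal the cells were grown for 7 days in medium containing 10% fetal calf serum plus the growth factors EGF and FGF (10 ng/ml), and each RNA sample pooled 2 dishes. No treatment, genotype or time was contrasted, so the comparisons are between replicate cultures and between genes within a library. The labels do not say whether cultures shared animals, so p-values measure the spread between these samples, part of which may be technical.

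Cells produce superoxide, peroxides and lipid peroxides as they respire, and these oxidize thiols, iron centres and membranes. Glutathione and thioredoxin are the chief reducing systems: cystine taken up by Slc7a11 is reduced to cysteine, joined to glutamate by glutamate-cysteine ligase (Gclc and Gclm), and spent by glutathione peroxidases, while thioredoxin, kept reduced by Txnrd1, serves the peroxiredoxins. Many of these genes respond to NRF2 (gene Nfe2l2), a transcription factor held back by KEAP1 until electrophiles or oxidants modify it, and which binds antioxidant response elements (ARE). Slc7a11 also responds to ATF4, a factor of the amino acid response, through amino acid response elements (AARE). In peripheral ganglia such defences matter because neurons have long axons rich in mitochondria and their glia handle large amounts of lipid.

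The 250 bases before a RefSeq transcription start (GRCm38.p6) are shown for the most variable member, Slc7a11, and for Prdx1 and Srxn1, which moved in opposite directions between cultures. Capitals mark matches to 3 short motifs searched on both strands: the ARE core TGACNNNGC, the AARE core TGATGNAA and TGAGTCA, the site of AP-1 factors, which can overlap the ARE core. The Slc7a11 stretch is chr3:50443614-50443863 on the minus strand, ahead of a start that lies inside the span of the gene in the count table. The Prdx1 stretch is chr4:116685349-116685598 and the Srxn1 stretch chr2:152105274-152105523, both on the plus strand.
Slc7a11: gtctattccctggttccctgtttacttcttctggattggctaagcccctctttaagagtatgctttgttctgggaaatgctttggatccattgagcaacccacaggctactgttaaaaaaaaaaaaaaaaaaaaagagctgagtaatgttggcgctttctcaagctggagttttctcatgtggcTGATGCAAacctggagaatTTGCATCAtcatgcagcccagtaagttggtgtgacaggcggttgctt
Prdx1: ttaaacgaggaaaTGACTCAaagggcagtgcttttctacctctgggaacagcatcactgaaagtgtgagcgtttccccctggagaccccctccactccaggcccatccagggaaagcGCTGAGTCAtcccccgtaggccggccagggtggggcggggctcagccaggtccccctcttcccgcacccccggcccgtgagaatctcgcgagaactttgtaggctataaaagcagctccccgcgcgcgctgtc
Srxn1: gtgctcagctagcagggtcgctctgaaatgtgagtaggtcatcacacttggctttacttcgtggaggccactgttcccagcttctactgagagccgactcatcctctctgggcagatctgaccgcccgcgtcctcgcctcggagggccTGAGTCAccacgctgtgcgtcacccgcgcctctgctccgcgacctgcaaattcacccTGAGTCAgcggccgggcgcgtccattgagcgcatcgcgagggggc

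Slc7a11 held 2 AARE cores on opposite strands, from -66 to -59 and from -47 to -40 counted from the start, and no ARE core in this window. Prdx1 held an ARE core from -133 to -125, with a TGAGTCA inside it, and a further TGAGTCA on the minus strand from -237 to -231. Srxn1 held TGAGTCA from -102 to -96 and from -45 to -39, and an ARE core after its start, at 28 to 36, which is not printed. RefSeq windows of 300 bases, 250 before to 50 after a start, were matched for 8 of the 10 members, and 4 of these (Gclm, Prdx1, Srxn1 and Txnrd1) held an ARE core in at least 1 window, against 14.0% of 27025 genes. The AARE core occurred in 1 of the 8 members against 4.51% of genes, and TGAGTCA in 2 of 8 against 5.95%. A match to letters is no evidence of a bound site, and elements farther upstream lie outside these windows.

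Gpx4 and Txnrd1 share a coding feature: in GENCODE M21 they are 2 of 10 members with a UGA codon read as selenocysteine, the selenium amino acid at their active sites. Of the 61 further pathway genes described below, 4 also hold such a codon: Gpx1, Gpx3, Txnrd2 and Txnrd3. The share over all genes was not computed. Both stretches below are coding strand, with the codon in capitals and 15 bases on each side; the codons lie on chromosome 10 at 80054737 to 80054739 for Gpx4 and at 82896037 to 82896039 for Txnrd1 (GRCm38).
Gpx4: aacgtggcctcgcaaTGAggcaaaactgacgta
Txnrd1: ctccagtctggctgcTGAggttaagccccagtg

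The libraries held 20070639 to 22968642 counts, and trimmed-mean scaling (TMM) moved them little, with factors between 0.976 and 1.022. Markers of peripheral glia, neurons, fibroblasts and mural cells were all present: 8 of 8 glial lineage genes, 8 of 8 neuronal genes, 7 of 8 fibroblast genes and 6 of 6 mural genes reached 1 CPM (a gene's count scaled to the total of its library) in every library, as did 6 of 8 macrophage genes and 2 of 6 endothelial genes. Replicates 1 and 5 stood at the ends for fibroblast and macrophage markers. The summed level of the 8 fibroblast genes was 3341 CPM in replicate 1 and 14110 CPM in replicate 5, and that of the 8 macrophage genes 16.8 CPM and 163 CPM. The 8 glial lineage genes summed to 6225 CPM in replicate 1 and 4319 CPM in replicate 5, but replicate 2 was level with replicate 1 at 6222 CPM. In such mixed cultures, fewer cells of a type and less RNA per cell cannot be told apart.

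All 10 members were transcribed at 1 CPM or more in all 6 libraries, against 30.4% of the 45703 genes in the table. Divided by exon length, their levels spanned from 276 ± 27.1 CPM per kb for Prdx1 to 1.70 ± 1.62 CPM per kb for Slc7a11 (SD, n = 6). The median member stood at 29.1 CPM per kb, against 7.20 CPM per kb for the median of 14998 genes with enough counts to test. Prdx1 ranked 116 among these genes by level, Srxn1 573 and Gpx4 598, whereas Nqo1 ranked 8608 and Slc7a11 11990.

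**Figure D1:**
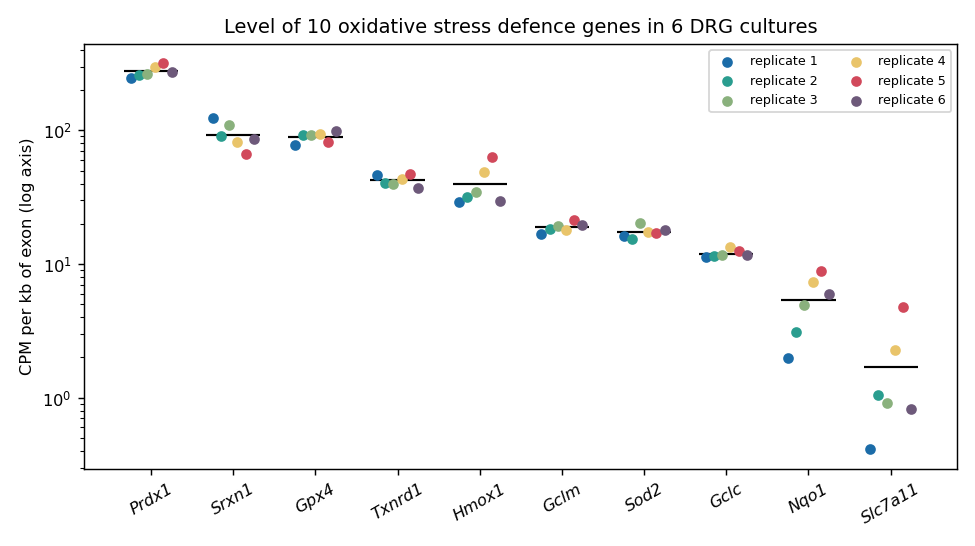
Level of each member in CPM per kb of exon (log axis), ordered by mean log2 level; points are the 6 replicate cultures and black lines their arithmetic means. Levels fell from 276 CPM per kb for Prdx1 to 1.70 CPM per kb for Slc7a11, and the points of Slc7a11, Nqo1 and Hmox1 spread most.

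Among the enzymes that remove peroxides and superoxide, Prdx1, the cytosolic peroxiredoxin that reduces hydrogen peroxide with electrons from thioredoxin, was the highest (gene on chromosome 4, 116685599 to 116700000). It measured 346 CPM in replicate 1, 365 in replicate 2, 375 in replicate 3, 422 in replicate 4, 449.9 in replicate 5 and 389.5 in replicate 6, a mean of 391 ± 38.4 CPM (SD, n = 6). Replicate 1 was lowest and replicate 5 highest, 1.30 times apart. Counts of Prdx1 were fractional in all 6 libraries and the gene overlaps AV051173 on the opposite strand, so its level is less certain.

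Gpx4, which reduces lipid hydroperoxides within membranes and guards against ferroptosis (chromosome 10, 80047166 to 80056439), measured 115, 134, 135, 138.5, 119 and 145 CPM in replicates 1 to 6. Here replicates 1 and 5, the ends of the fibroblast range, were both the lowest. The mean was 131 ± 11.7 CPM, or 89.4 ± 7.97 CPM per kb (SD, n = 6). Gpx4 counts were fractional in every library, and its pseudogene Gpx4-ps2 held 923 to 1120 counts per library against 2490 to 3027 for Gpx4, so reads may have been divided between them and the level of Gpx4 is uncertain.

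Sod2, the manganese superoxide dismutase of mitochondria (chromosome 17, 13007839 to 13018119), measured 61.8, 58.5, 77.4, 66.8, 65.8 and 69.1 CPM in replicates 1 to 6. Its highest library was replicate 3 and its lowest replicate 2, so it did not follow the axis between replicates 1 and 5. The mean was 66.6 ± 6.54 CPM, or 17.4 ± 1.71 CPM per kb (SD, n = 6). Counts of Sod2 were fractional in 5 libraries, so its level is less certain.

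Of the thiol repair enzymes, Srxn1, sulfiredoxin, restores peroxiredoxins that have been overoxidized (chromosome 2, 152105524 to 152111376). It measured 345 CPM in replicate 1, 254 in replicate 2, 306 in replicate 3, 230.3 in replicate 4, 186 in replicate 5 and 242 in replicate 6, with a mean of 260.5 ± 56.7 CPM (SD, n = 6). After TMM scaling its order over the cultures was the exact reverse of that of Prdx1, and it was the only one of the 10 with its highest value in replicate 1 and its lowest in replicate 5, a pattern shown by 7.56% of the genes tested. The highest library was 1.86 times the lowest. Srxn1 was fractional in a single library.

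Txnrd1, the cytosolic thioredoxin reductase (chromosome 10, 82833951 to 82897724), measured 188, 163, 159.7, 174, 190.3 and 150.0 CPM in replicates 1 to 6. Replicates 1 and 5 were the 2 highest and replicate 6 the lowest, the opposite placing of the end libraries from that of Gpx4. The mean was 171 ± 16.1 CPM, or 42.5 ± 4.00 CPM per kb (SD, n = 6). All its counts were whole, although Eid3 overlaps it on the same strand and Gm38560 on the other.

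In the glutathione supply, Slc7a11 is the transporter subunit of system xc-, which exchanges cystine for glutamate (chromosome 3, 50364936 to 50499087). It measured 3.92 CPM in replicate 1, 9.99 in replicate 2, 8.78 in replicate 3, 21.6 in replicate 4, 45.4 in replicate 5 and 7.85 in replicate 6, a mean of 16.3 ± 15.5 CPM (SD, n = 6). The SD was almost as large as the mean: replicate 5 stood 11.6 times above replicate 1, and replicate 4 was the second highest. Without replicate 5 the mean was 10.4 CPM, and without replicates 1 and 5 the ratio of highest to lowest was 2.76. Its counts ran from 90 to 950, fractional in 5 libraries, so counting noise alone would give a coefficient of variation (CV, SD over mean) of 5.41% where 95.1% was measured.

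Gclc, the catalytic subunit of glutamate-cysteine ligase (chromosome 9, 77754535 to 77794489), was the steadiest member. It measured 42.0, 42.4, 43.5, 49.3, 46.1 and 43.4 CPM in replicates 1 to 6, a mean of 44.5 ± 2.78 CPM (SD, n = 6) and a CV of 6.26%, where counting noise alone would give 3.24%. Gclm, the modifier subunit that raises the activity of Gclc (chromosome 3, 122245487 to 122267215), measured 37.4, 41.1, 43.2, 39.9, 47.7 and 43.5 CPM, a mean of 42.1 ± 3.56 CPM (SD, n = 6). Both subunits thus stayed within 1.28 times between any pair of cultures while the cystine transporter moved 11.6 times. Counts of Gclc were all whole. Those of Gclm were fractional in 3 libraries, and Gm6061 overlaps Gclm on the same strand and Gm46822 on the other.

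Of the quinone and haem enzymes, Nqo1, which reduces quinones by 2 electrons (chromosome 8, 107388225 to 107403205), measured 3.09, 4.78, 7.71, 11.5, 13.8 and 9.28 CPM in replicates 1 to 6. Replicate 1 was lowest, replicate 5 highest, and the ratio between them 4.47. The mean was 8.35 ± 4.03 CPM (SD, n = 6), from 71 to 289 counts per library. Hmox1, the inducible haem oxygenase that releases iron, carbon monoxide and biliverdin (chromosome 8, 75093618 to 75100593), measured 45.8, 49.8, 54.1, 76.4, 99.6 and 47.0 CPM, a mean of 62.1 ± 21.6 CPM (SD, n = 6). Replicates 4 and 5 lay above the rest, which ranged only from 45.8 to 54.1 CPM.

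**Figure D2:**
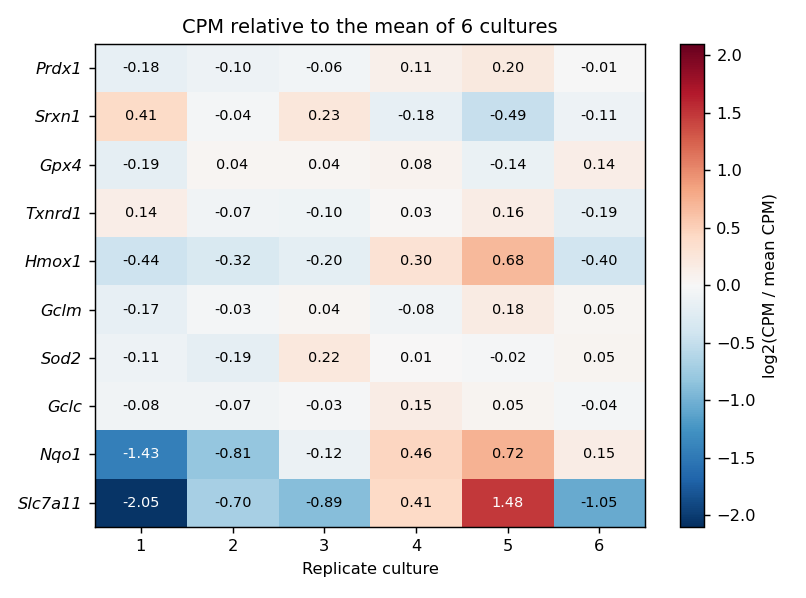
Level of each member (rows) in each replicate culture (columns) as log2 of its CPM over its mean CPM in the 6 cultures; red is above and blue below the mean. Slc7a11 ranged from -2.05 in replicate 1 to 1.48 in replicate 5, Srxn1 from 0.41 to -0.49 in the opposite direction, and Gclc from -0.08 to 0.15.

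Spread between cultures exceeded counting noise for all 10 members. Counts were set against TMM-scaled library sizes in a chi-square test, which, with Benjamini-Hochberg adjustment over all 14998 genes, called 10 of 10 at an adjusted p-value under 0.05, but it also called 76.3% of the genes tested. The largest adjusted p-values were those of Gclc (0.0182) and Gclm (6.58e-05). Without replicate 4, Gclc was no longer called, and with replicates 1 and 5 both left out, Gclm was not. The median CV of the members, 9.82%, was below the 12.1% of all genes tested. It concealed a split: Slc7a11 (95.1%), Nqo1 (48.2%), Hmox1 (34.7%) and Srxn1 (21.8%) had CVs at the 99.4, 95.5, 90.3 and 75.6 percentile of the genes tested, and the other members had CVs from 6.26% to 9.82%, at percentiles from 16.5 to 39.1.

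None of the 10 varied beyond the trend of genes of like abundance at an adjusted p-value under 0.05 in edgeR's quasi-likelihood fit, which called 0.0% of all genes. At an unadjusted threshold of 0.05 the same edgeR test marked 3 of 10 members against 5.38% of all genes. They were Slc7a11, Hmox1 and Nqo1, whose adjusted p-values in edgeR were 0.844, 0.902 and 0.916. On simulated libraries, with the spread varying between genes around a common value and without a trend in abundance, this test recovered 0 of 100 genes changed 4-fold. Larger ranges, such as that of Slc7a11, were not simulated. The test had little power there, so its lack of calls cannot be read as a lack of spread in the members. DESeq2 marked 1 member, Slc7a11, as a dispersion outlier, as it did 3.41% of genes.

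**Figure D3:**
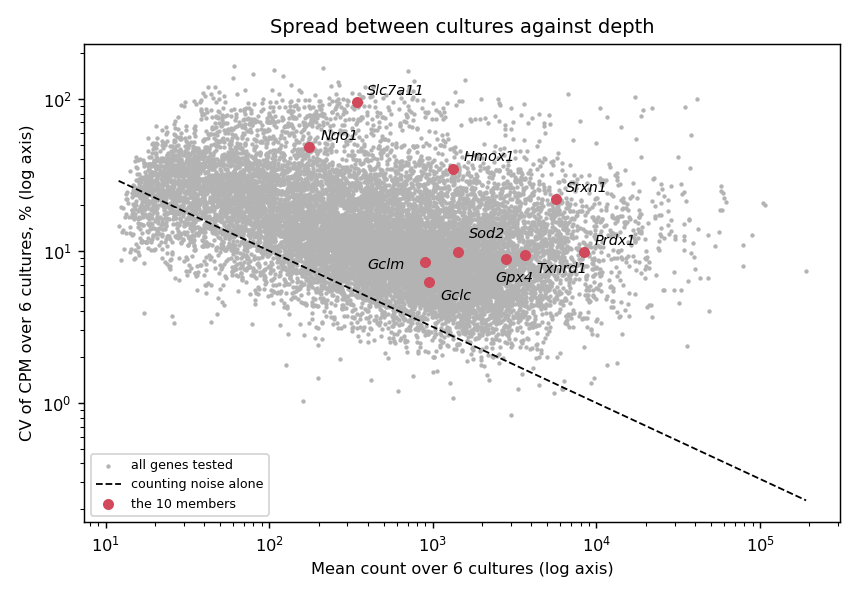
CV of CPM over the 6 cultures (percent, log axis) against mean count (log axis) for the 14998 genes tested (grey) and the 10 members (red); the dashed line is counting noise alone. All 10 members lay above the line, Slc7a11 at 95.1% and Gclc at 6.26%.

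The libraries at the ends of the fibroblast range were also where most members had their extremes. Replicate 5 held the highest value of 6 of 10 members, where it held that of 29.2% of genes tested, and replicate 1 the lowest of 7 of 10, against 23.8%. Both at once held for Prdx1, Hmox1, Gclm, Nqo1 and Slc7a11, a pattern of 12.9% of the genes tested. By the gap of the most extreme library to its neighbour over the whole range, 0 of 10 members had a single library apart (Dixon's 95% limit), against 6.98% of genes tested.

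Relations of each member to the mean log2 level of the fibroblast, macrophage and glial lineage markers were computed over the 6 cultures, 30 in all. Slc7a11 followed the fibroblast score with Pearson's r = 0.995 (exact permutation p = 0.00139, the smallest possible; adjusted p = 0.0417). Spearman's rho was 1 (exact permutation p = 0.00278, adjusted 0.0833). When the libraries most distant from the median score, replicates 1 and 5, were dropped, r was 0.989. Hmox1 followed it with r = 0.945 (exact permutation p = 0.00278, adjusted 0.0417) and rho = 0.943 (exact permutation p = 0.0167, adjusted 0.125), and r was 0.996 without the same libraries. These 2 of 30 relations passed for Pearson's r and 0 of 30 for Spearman's rho, where 11 had an unadjusted exact permutation p under 0.05 for r. How many of all genes tested followed the scores as closely was not computed, so these counts show no trait particular to the members. With any single replicate left out, 0 of 30 passed; 5 libraries allow no exact permutation p below 0.00833. No batch is named in the labels, so within-batch values cannot be given.

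Prdx1 (r = 0.946, exact permutation p = 0.00694, adjusted 0.0694; rho = 0.829, exact permutation p = 0.0583, adjusted 0.194) and Srxn1 (r = -0.93, exact permutation p = 0.0153, adjusted 0.106; rho = -0.83, exact permutation p = 0.0583, adjusted 0.194) had fibroblast relations of opposite sign that did not pass the correction. Without replicates 1 and 5 both r lay nearer 0, at 0.785 and -0.57. Nqo1 had r = 0.878 with the fibroblast score (exact permutation p = 0.0208, adjusted 0.106; rho = 0.771, exact permutation p = 0.103, adjusted 0.257), falling to 0.564 without those libraries. With the macrophage score Nqo1 had r = 0.861 (exact permutation p = 0.0306, adjusted 0.106; rho = 0.943, exact permutation p = 0.0167, adjusted 0.125) and r = 0.625 without replicates 1 and 5. The glial lineage score gave negative r for Slc7a11 (-0.87), Prdx1 (-0.85) and Hmox1 (-0.95), with exact permutation p from 0.0222 to 0.0319 and adjusted 0.106 each. Their rho values were -0.49, -0.49 and -0.60, with exact permutation p from 0.242 to 0.356 and adjusted p from 0.426 to 0.533. Without replicates 4 and 5 these r turned to 0.685, 0.366 and 0.361, so they rest on those libraries. The 3 scores share replicate 5 as an end, the highest for fibroblast and macrophage markers and the lowest for glial ones, and which of them a member accompanies was not tested. Other cell types also differed between these libraries. The summed level of the 6 mural genes was lowest in replicate 1 (274 CPM) and highest in replicate 5 (1541 CPM), and that of the 6 endothelial genes likewise (8.14 and 119 CPM). The summed neuronal level was lowest in replicate 5 (808 CPM) but highest in replicate 3 (1835 CPM). The relation of these cell types to Slc7a11 and Hmox1 was not tested.

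**Figure D4:**
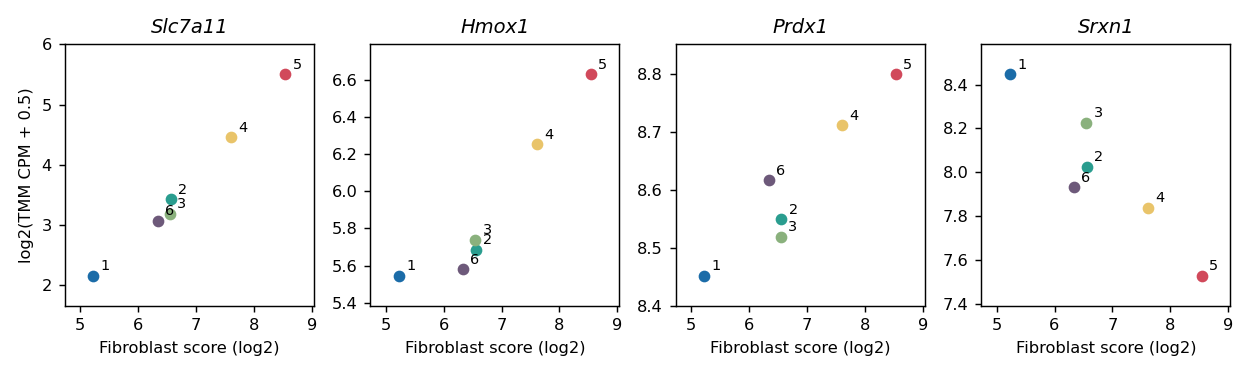
Level of 4 members, as log2 of TMM-scaled CPM plus 0.5, against the fibroblast score, the mean log2 level of 8 fibroblast markers, in the 6 cultures (numbered); the vertical ranges differ between panels. Slc7a11 (r = 0.995), Hmox1 (r = 0.945) and Prdx1 (r = 0.946) rank up with the score and Srxn1 (r = -0.93) ranks down.

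Between members, 45 relations were computed and 0 passed the correction for Pearson's r or Spearman's rho, although 10 had an unadjusted exact permutation p under 0.05 for r. Of the 45 pairs, 28 had a positive r, and the median r was 0.167. Prdx1 and Srxn1 gave r = -0.97 and rho = -1 (exact permutation p = 0.00278 each, adjusted 0.0938 and 0.125), with r = -0.91 without replicates 1 and 5. Slc7a11 and Hmox1 gave r = 0.962 (exact permutation p = 0.00417, adjusted 0.0938) and rho = 0.943 (exact permutation p = 0.0167, adjusted 0.125), with r = 0.750 without replicates 4 and 5.

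Many other genes shared the profile of the 3 most variable members. By r of log2 CPM over the 6 libraries, those nearest to Slc7a11 were Col7a1, Ctsk and Ly6e (r = 0.996 each), and 63 of the 226 genes compared had r above 0.95. Col7a1 encodes an anchoring collagen and Ctsk the protease cathepsin K. Nearest to Nqo1 were Jag1 (0.995), a Notch ligand, Serping1 (0.993), the C1 inhibitor, and Cald1 (0.991), caldesmon, with 48 of 662 above 0.95. Nearest to Hmox1 were Ptprg (0.995), Rai14 (0.993) and Sh3kbp1 (0.991), with 49 of 1782 above 0.95.

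Within libraries the order of the members by level was Prdx1, Srxn1, Gpx4, Txnrd1, Hmox1, Gclm, Sod2, Gclc, Nqo1 and Slc7a11, on the scale log2(CPM per kb + 0.1). Of the 9 neighbouring pairs, 6 differed in the same direction in all 6 libraries. For these the exact sign-flip permutation gave p = 0.0312, the smallest that 6 libraries allow, and adjusted p = 0.0468. The pairs and their direction came from sorting these same values, so the p-values are no separate support for the order. The steps were 1.60 ± 0.445 from Prdx1 to Srxn1, 1.07 ± 0.259 from Gpx4 to Txnrd1, 1.00 ± 0.395 from Hmox1 to Gclm, 0.53 ± 0.148 from Sod2 to Gclc, 1.30 ± 0.727 from Gclc to Nqo1 and 1.85 ± 0.649 from Nqo1 to Slc7a11 (log2, SD, n = 6). Srxn1 and Gpx4 (0.03 ± 0.359, exact sign-flip permutation p = 0.875, adjusted 0.875), Txnrd1 and Hmox1 (0.17 ± 0.394, exact sign-flip permutation p = 0.375, adjusted 0.422) and Gclm and Sod2 (0.12 ± 0.145, exact sign-flip permutation p = 0.125, adjusted 0.161) did not differ beyond their spread on this scale. Without length, the difference of Srxn1 from Gpx4 was 0.97 and that of Txnrd1 from Hmox1 1.52, both past the threshold. The means of Gpx4 minus Txnrd1 (-0.38), Gclm minus Sod2 (-0.66) and Nqo1 minus Slc7a11 (-0.66) had the opposite sign. Gclm then lay below Sod2 in every library. In replicate 6, however, Nqo1 still exceeded Slc7a11 in CPM (9.28 against 7.85). The order also depends on which length is used: per kb of the longest GENCODE coding transcript, Gclm fell from 18.9 to 7.54 CPM per kb and below both Gclc and Sod2.

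Each member was then set beside the subunit, substrate or related enzyme it works with, in 11 pairs. In 10 of them the difference in log2(CPM per kb + 0.1) had the same sign in all 6 libraries, with an adjusted p of 0.0343 (exact sign-flip permutation, p = 0.0312). How often other gene pairs keep 1 sign was not computed. The median gene tested varied only 1.38 times between cultures, so this count cannot be read as a trait of these pairs. The largest difference was in the cystine transporter: Slc7a11 lay below Slc3a2, the heavy chain that carries it and several other transporters to the surface. The gap was 4.47 on average (mean -4.47 ± 1.06, n = 6), from -5.98 in replicate 1 to -2.85 in replicate 5. Slc3a2 itself measured 178 ± 20.5 CPM (SD, n = 6) and varied 1.31 times.

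Mitochondrial Sod2 lay below Sod1, the copper-zinc enzyme of the cytosol (difference -2.93 ± 0.151, n = 6). However, Sod1 was fractional in all libraries and Sod2 in 5. The gap was -0.35 without length, since Sod2 has 3824 bases of exon and Sod1 637. Txnrd1 exceeded its mitochondrial counterpart Txnrd2 by 2.11 ± 0.148 and Prdx1 exceeded Prdx2 by 1.10 ± 0.156, or by 0.46 per kb of the longest GENCODE coding transcript. Prdx1 was fractional in all libraries and Prdx2 in 5. Hmox1 exceeded Hmox2, the constitutive haem oxygenase, by 1.19 ± 0.320, most in replicate 5 (1.75), and by 0.74 without length. Prdx1 exceeded its repair enzyme Srxn1 by 1.60 ± 0.445, a gap of 0.99 in replicate 1 and 2.26 in replicate 5. That mean gap was 0.61 without length and 0.90 per kb of GENCODE transcript.

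Gclc exceeded Gss, the glutathione synthetase of the next step, by 0.32 ± 0.109, and lay below Gclm by 0.65 (mean -0.65 ± 0.133). That direction reversed to 0.78 per kb of GENCODE transcript. Without length the mean was 0.08 and the sign varied, with Gclc below Gclm in replicates 5 and 6 and above it in the others. Txnrd1 lay below its substrate thioredoxin, Txn1 (-1.75 ± 0.132), per kb, but above it in CPM (0.19). Gpx4 lay below Gpx1, the cytosolic glutathione peroxidase (-0.62 ± 0.329), a difference that did not pass without length (-0.13) or per kb of GENCODE transcript (-0.02). For Nqo1 against Nqo2 the difference was -0.53 ± 0.718 and its sign varied, with values from -1.59 to 0.37 (exact sign-flip permutation p = 0.156, adjusted 0.156) and Nqo1 higher in replicate 5 alone. Without length, Nqo1 lay below Nqo2 in all 6 libraries (-1.95), so the change of sign holds only per kb.

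**Figure D5:**
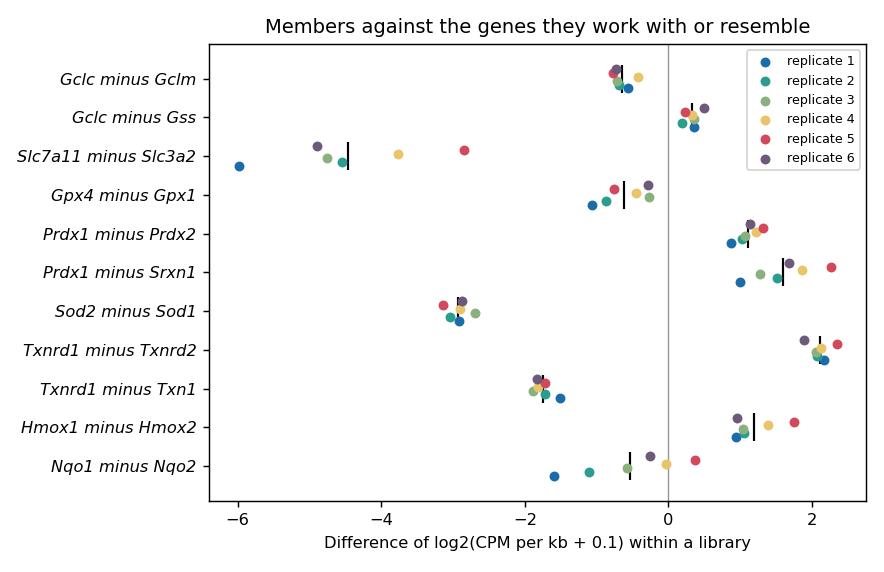
Difference of log2(CPM per kb + 0.1) between a member and a partner gene within each library, for 11 pairs; points are the 6 replicate cultures, black ticks their means, and 0 means equal levels per kb. Slc7a11 minus Slc3a2 runs from -5.98 to -2.85, and Nqo1 minus Nqo2 is the only pair on both sides of 0.

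The wider pathway was read from 61 further genes in 6 lists. Of these, 58 of 61 reached 1 CPM in every library, against 30.4% of the genes in the table. Enough counts to test were held by 60, and 58 varied beyond counting noise, against 76.3% of all genes tested. Those tested and not called were Txnrd2 (18.6 ± 0.749 CPM, adjusted p = 0.449 in the chi-square test) and Blvrb, a biliverdin reductase (9.31 ± 0.903 CPM, adjusted p = 0.0820), both named after their values were seen, the former also as a partner. The pattern of lowest in replicate 1 and highest in replicate 5 was shown by 13 of 61, and the opposite pattern by 4 of 61, against 12.9% and 7.56% of all genes tested.

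All 9 NRF2 regulators reached 1 CPM in every library, against 30.4% of the genes in the table. All 9 varied beyond counting noise, against 76.3% of all genes tested. Their median CV was 12.0%. Nfe2l2, which encodes NRF2 itself, was nearly level, at 203, 222, 207, 216, 197 and 203 CPM in replicates 1 to 6 (CV 4.49%). Sqstm1, the autophagy receptor p62 that competes for KEAP1, was the highest of the list at 228.5 ± 33.3 CPM per kb, with its highest value in replicate 1 (577 CPM) and its lowest in replicate 5 (399.8 CPM), as for Srxn1. Maff, a small Maf partner of NRF2, had the highest CV among genes with a mean of at least 5 CPM, 23.6%, with 25.9 ± 6.13 CPM (SD, n = 6). None of the 9 had its highest value in replicate 5, where 29.2% of all genes tested had theirs.

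In the list of glutathione synthesis and recycling, 11 of 12 genes reached 1 CPM in every library, against 30.4% of the genes in the table. Ggt5 had too few counts to test. All 11 genes tested varied beyond counting noise, against 76.3% of all genes tested. The highest were Pgd and G6pdx, the enzymes that make NADPH in the pentose phosphate pathway, at 71.3 ± 5.03 and 34.3 ± 1.94 CPM per kb (SD, n = 6). Chac1, an ATF4 target that degrades glutathione, had the highest CV, 25.1%, among genes with a mean of at least 5 CPM. Its highest library was replicate 1 at 17.6 CPM, and replicate 5 came next at 14.4 CPM. Any part of ATF4 in the levels of Chac1 or Slc7a11 was not tested. Of the glutathione peroxidases and transferases, 12 of 12 were called, against the same 76.3%. Gpx1 stood at 138 ± 23.1 CPM per kb and Gstp1, fractional in every library, at 85.3 ± 7.79, while Gpx3, the secreted plasma peroxidase, varied most, between 3.19 CPM (replicate 2) and 10.6 CPM (replicate 5).

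In the thioredoxin and peroxiredoxin list, 11 of 12 genes were called, against 76.3% of all genes tested. Its highest members per kb were Txn1 (142.5 ± 10.4 CPM per kb) and Prdx2 (128 ± 3.10 CPM per kb). Txnip, the thioredoxin-binding protein induced by glucose, varied most, between 77.1 CPM (replicate 6) and 227 CPM (replicate 1), a CV of 31.9%. All 4 genes of the superoxide and catalase list were called. Catalase, Cat, measured 133.5 ± 4.66 CPM (CV 3.49%, adjusted p = 0.0407 in the chi-square test), and the extracellular enzyme Sod3 71.4 ± 14.7 CPM (SD, n = 6), highest in replicate 6 at 97.2 CPM.

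Of the genes for haem, iron and quinones, 11 of 12 were called, against 76.3% of all genes tested. The ferritin genes, which store the iron that haem oxygenase frees, were the highest of all the lists: Ftl1 at 627 ± 95.0 CPM per kb and Fth1 at 415 ± 128 CPM per kb (SD, n = 6). Fth1 measured 388, 507, 625, 734, 943 and 568 CPM in replicates 1 to 6 and Ftl1 498, 603, 569, 661, 760.4 and 554.5 CPM. As with Hmox1, both were lowest in replicate 1 and highest in replicate 5, by 2.43 and 1.53 times. Ftl1 was fractional in all 6 libraries and Fth1 in 3, so their levels are less certain.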

How the data were processed

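RNA from 6 replicate DRG cultures was sequenced from stranded poly-A libraries, per the labels. The authors deposited estimated counts per gene, unscaled; 13.4% to 14.7% of values per library were not whole. STAR 2.7.2b, featureCounts 1.6.4, cutadapt 2.5 and GRCm38.p6 are named per the submitters' processing notes; strand and multi-matching settings are not given in the sources used here. All 45703 gene identifiers matched RefSeq GRCm38.p6, and 0 further per-sample columns were present.

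CPM used library totals; levels between genes used CPM per kb of the deposited combined exon length. Rounded counts, filtered with filterByExpr (14998 genes), entered edgeR 4.0.16 and, as an alternative, DESeq2 1.42.0, both under R 4.3.3. The edgeR fit was scaled by TMM and the DESeq2 run by its own size factors. Tests were a per-gene chi-square test, an intercept-only edgeR quasi-likelihood fit, two-sided exact sign-flip tests over 64 patterns and two-sided exact permutation over 720 pairings. Each family was Benjamini-Hochberg adjusted at 0.05. On simulated data the chi-square test recovered 97 of 100 genes changed 2-fold and 100 of 100 changed 4-fold among 14998, with 7 other calls. The quasi-likelihood test recovered 0 of 100 and 0 of 100 among 14997 when spread varied between genes, and 4 and 98 of 100 among 14998 when it did not. Named genes were the members, their partners, and from each list the 2 highest per kb and the highest CV above a mean of 5 CPM. Genes alike to the 3 members of highest CV had a mean of at least 20 CPM and an SD of at least 0.5 of that member's. Members and lists were chosen with earlier results of these data known. The Srxn1, Prdx1 and Slc7a11 stretches and the AARE and TGAGTCA motifs were chosen after values and sequences were seen. Alternatives covered scaling, filter, pseudocount, gene length and leaving out libraries.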

Additional observations from a re-analysis of the deposited data

Results flagged for a closer look

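Of 32 genes examined, the members and the named pathway genes, 1 had a library that stood apart by the gap to its nearest neighbour over the range of the 6 libraries, where chance would flag 1.6 and where 6.98% of all genes tested were flagged. It was Prdx2, the peroxiredoxin set beside Prdx1, with a ratio of 0.692, above Dixon's 95% critical value. Prdx2 measured 208.5 CPM in replicate 1 and 195 to 199 CPM in the others, a CV of 2.42%, so the library apart differed by little. None of the 10 members was flagged; the closest was Slc7a11 at 0.573, with replicate 5 at its end.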

How the results depend on the processing

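Counts of members varying beyond counting noise lay between 9 and 10 in every alternative run, and 6 of 9 neighbouring pairs and 10 of 11 partner pairs with a single sign became 5 to 7 and 9 to 11. The DESeq2 dispersion outlier rule gave 1 member beyond the trend against 0. With any replicate left out, 0 of the 30 marker relations passed, against 2; r of Slc7a11 with the fibroblast score was then 0.991 to 0.998, and that of Hmox1 0.872 to 0.997. No member relation passed under any scaling run. Without length, mean differences in log2 changed sign for Gclc minus Gclm (0.0787), Txnrd1 minus Txn1 (0.19), Gpx4 minus Txnrd1 (-0.38), Gclm minus Sod2 (-0.66) and Nqo1 minus Slc7a11 (-0.66). Of these, Gclc minus Gclm and Nqo1 minus Slc7a11 no longer had a single sign over the libraries. Calls were gained for Srxn1 minus Gpx4 (0.97), Txnrd1 minus Hmox1 (1.52) and Nqo1 minus Nqo2 (-1.95). Gclm minus Sod2 gained a single sign, with Gclm below Sod2 in CPM in every library. The single sign was also lost for Gpx4 minus Gpx1 (-0.13). Length by the longest GENCODE coding transcript was an alternative chosen after the data were seen, like the one without replicates 1 and 5. Per kb of it, mean differences reversed for Gclc minus Gclm (0.78), Srxn1 minus Gpx4 (-0.53), Gclm minus Sod2 (-0.58) and Sod2 minus Gclc (-0.20). Only the length divisor differs between these values. Mean CPM of all 10 members moved by less than 1 SD with TMM scaling or a library left out, but the SD of Slc7a11 is near its mean, which was 10.4 CPM without replicate 5 against 16.3 CPM. No paired analysis was possible because all samples form a single group. Fractional counts limit Gpx4, Prdx1, Sod1, Gstp1 and Ftl1 most, and depth limits Nqo1, at 71 counts in its lowest library.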
